A study of Rattus norvegicus with 6 samples.

Results

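Neurofilaments and markers of large sensory neurons were followed across rat dorsal root ganglia as 10 genes, chosen by name and all present among the 22864 genes of the deposited count table. They are 5 neuronal intermediate filament genes (Nefh, Nefm, Nefl, Prph and Ina) and 5 markers of large sensory neurons (Pvalb, Spp1, Vsnl1, Thy1 and Slc17a7). All 10 passed the filter on low counts, which left 15531 genes to test. The study profiled ipsilateral L4 to L6 ganglia of wild-type rats, with an O-ring size stated for males, in 3 groups of 2 libraries. Rats of the CPIP groups had the hind limb tied near the ankle for 3 h under pentobarbital, the chronic post-ischaemia pain model, and received daily intrathecal vehicle (CPIP+Veh) or etanercept (CPIP+ETA), a soluble TNF receptor fusion protein, starting 2 days later. Sham+Veh rats had the anaesthesia without the ring and received vehicle, and all ganglia were taken 7 days after the procedure. The ages of the rats, and whether a library is 1 animal or a pool, are not given in the labels. The p-values therefore set group differences against the spread between these libraries, which may be technical and not that between animals.

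Neurofilaments are bundles of intermediate filament protein that fill large axons and set their diameter, which governs how fast they conduct. The light chain (Nefl) forms the core with the medium (Nefm) and heavy (Nefh) chains, whose long tails space the filaments. Peripherin (Prph) joins them in neurons that project outside the brain and spinal cord and is abundant in small sensory neurons, and alpha-internexin (Ina) is a further partner, known mainly from central neurons. After a peripheral nerve is cut, rat sensory neurons are known to lower neurofilament mRNA and to raise peripherin mRNA.

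The labelled tissue held its defining markers. All 18 pan-neuronal genes looked up were tested, and their summed level was 14303 to 15535 CPM (read counts scaled to library size, here with TMM, a correction for library composition). Satellite glial markers summed to 5214 to 5821 CPM and Schwann cell myelin genes to 9627 to 14513 CPM. Library totals ran from 18285251 to 19981250 reads. Libraries of a group differed by more than counting noise, with a chi-square per gene of 6.03 in Sham+Veh, 6.81 in CPIP+Veh and 10.02 in CPIP+ETA. Because these are whole ganglia, fewer cells of a type and less RNA per cell cannot be told apart.

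Promoters of 6 of the 10 genes were listed by RefSeq on GRCr8, which is not the build the counts were made on (Prph, Ina, Pvalb, Spp1, Vsnl1 and Slc17a7). Each window runs from 250 bases before the transcription start to 50 bases after it. Shown are those of Prph and Spp1, the members with a promoter entry whose level was higher in every CPIP library than in both sham libraries. Capitals mark TATAAA, the core of the TATA box.
Prph, GRCr8 chr7:132097039-132097338, plus strand: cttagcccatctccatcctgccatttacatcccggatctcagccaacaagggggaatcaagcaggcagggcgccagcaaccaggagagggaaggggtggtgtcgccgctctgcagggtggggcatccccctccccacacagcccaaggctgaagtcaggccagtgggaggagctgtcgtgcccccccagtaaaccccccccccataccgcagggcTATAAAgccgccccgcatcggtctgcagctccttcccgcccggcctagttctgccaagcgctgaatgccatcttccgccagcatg
Spp1, GRCr8 chr14:5619755-5620054, minus strand: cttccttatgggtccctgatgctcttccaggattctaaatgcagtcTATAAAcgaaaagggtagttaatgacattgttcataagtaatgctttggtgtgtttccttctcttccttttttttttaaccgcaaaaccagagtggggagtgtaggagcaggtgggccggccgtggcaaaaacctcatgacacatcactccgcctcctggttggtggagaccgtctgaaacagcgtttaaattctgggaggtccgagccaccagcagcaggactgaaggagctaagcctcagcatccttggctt

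TATAAA was searched on both strands. Its first base lies 35 bases before the start in Prph and 204 bases before it in Spp1, and it was in 2 of the 6 windows and in 14.2% of all 33469 promoters of the table. GGGCGG, the core of the GC box, was in 5 of the 6 windows (not in that of Spp1) and in 33.1% of all promoters. In Prph it was found on the opposite strand 28 bases before the start and at the start itself, with no overlap with TATAAA. These are matches of letters, not measured binding sites.

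The neurofilament triplet gave more reads than any other gene. Nefm ranked 1st, Nefl 2nd and Nefh 3rd by count in each of the 6 libraries, without correction for gene length. Together they took 2.72% to 3.16% of a library's reads, and all 10 genes together took 3.29% to 3.72%. Nefl and Nefm are near neighbours on chromosome 15 of GRCr8, with 1 annotated gene between them that does not code for protein, and Nefh lies on chromosome 14.

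Nefh, the heavy chain and a marker of large myelinated neurons, stood at 8688 and 8098 CPM in Sham+Veh, 8421 and 7991 CPM in CPIP+Veh, and 9200 and 8165 CPM in CPIP+ETA. Nefm stood at 12099 and 11520 CPM in Sham+Veh, 11823 and 11091 CPM in CPIP+Veh, and 12987 and 11259 CPM in CPIP+ETA. Nefl stood at 8842 and 8650 CPM in Sham+Veh, 8661 and 8150 CPM in CPIP+Veh, and 9572 and 8493 CPM in CPIP+ETA. For each chain the 3 groups overlapped, the highest value was that of CPIP+ETA 1 and the lowest that of CPIP+Veh 2. Summed over the chains, the mean level was 28948 ± 963 CPM in Sham+Veh, 28069 ± 1183 CPM in CPIP+Veh and 29838 ± 2717 CPM in CPIP+ETA (SD, n = 2).

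The 3 chains kept close to a fixed proportion. Nefm made up 40.3% to 40.9% of the triplet reads, Nefh 28.6% to 29.3% and Nefl 29.8% to 30.6% over the 6 libraries. These shares of reads are not corrected for transcript length.

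None of the chains passed in any comparison. In CPIP+Veh against Sham+Veh the log2 fold changes were -0.03 for Nefh (95% interval -0.20 to 0.14), -0.04 for Nefm (-0.22 to 0.14) and -0.06 for Nefl (-0.22 to 0.10). The lower ends of these intervals stand for levels lower by 13.0%, 14.5% and 14.0%, so a larger fall lies outside them with TMM scaling. Scaled to the pan-neuronal genes the log2 fold changes were -0.12 for Nefh, -0.13 for Nefm and -0.14 for Nefl. Their edgeR p-values were 0.045, 0.041 and 0.0157 unadjusted, and 0.508, 0.504 and 0.49 adjusted. That scale moves the log2 fold change of every gene by nearly the same amount. Other members therefore also had lower values than with TMM, with -0.21 for Pvalb, -0.12 for Vsnl1 and 0.10 for Prph. So did genes that are no members, such as the kinesin gene Kif5c, with 0.14 beside 0.22 with TMM. Some of those pan-neuronal genes are themselves raised by nerve injury, so the scale is not independent of it. Their part in these values was not tested. With TMM the adjusted p-values were 0.981, 0.977 and 0.959 (edgeR quasi-likelihood test, Benjamini-Hochberg over all genes tested).

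With etanercept, against CPIP+Veh, the log2 fold changes were 0.08 for Nefh (95% interval -0.09 to 0.25), 0.08 for Nefm (-0.10 to 0.26) and 0.10 for Nefl (-0.06 to 0.26). They depend on single libraries. Without CPIP+ETA 1 the values were -0.0049 for Nefh, -0.02 for Nefm and 0.02 for Nefl. Without CPIP+ETA 2 they were 0.16, 0.18 and 0.19, and without CPIP+Veh 2 they were 0.04, 0.04 and 0.06. For each chain library 1 was higher than library 2 in every group. Against sham, the 3 values in CPIP+ETA lay between 0.04 and 0.05, and below 0 for each chain without CPIP+ETA 1 or with scaling to the pan-neuronal genes.

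**Figure D1:**
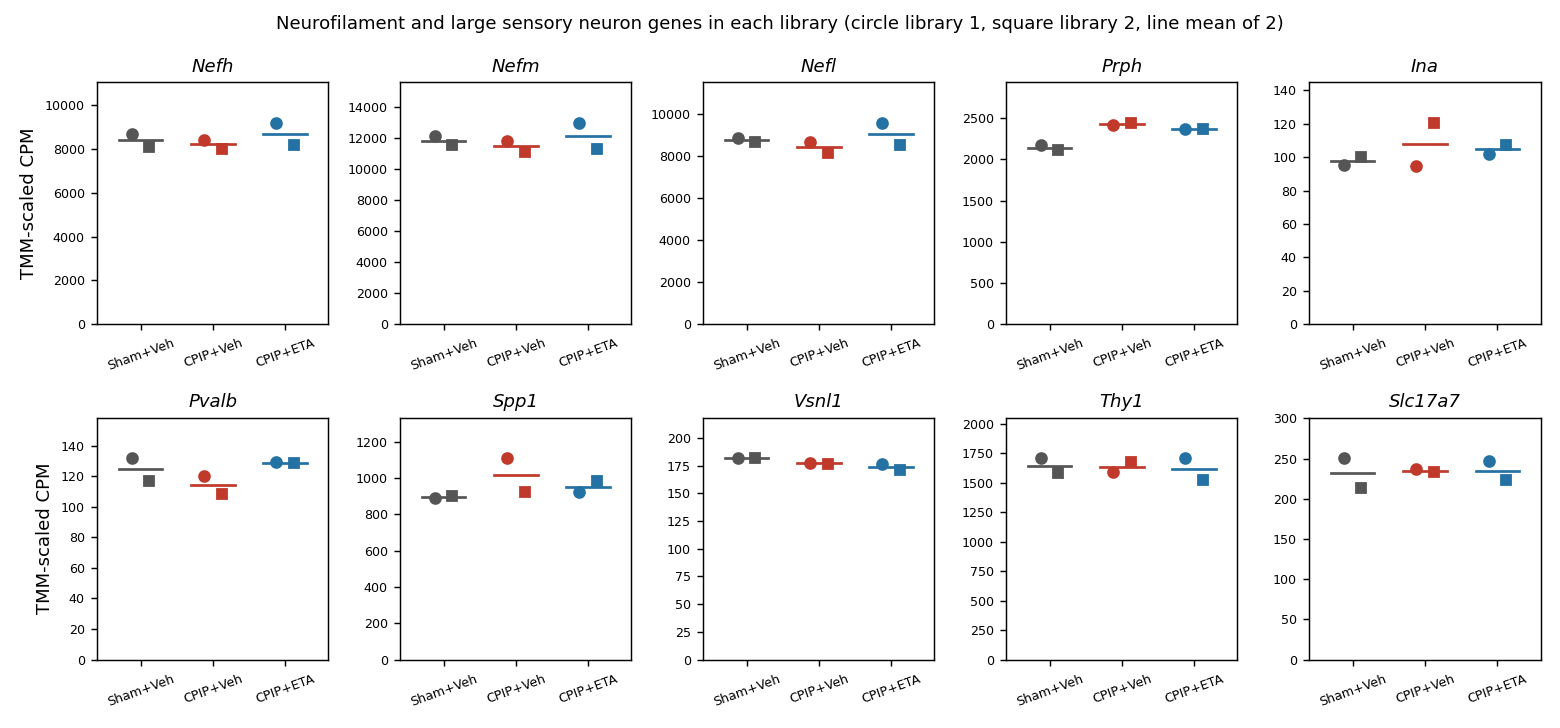
TMM-scaled CPM (vertical axis, from 0) of the 10 genes in each library by group (horizontal axis), with circles for library 1, squares for library 2 and lines for the mean of 2 libraries. Prph sits at 2114 and 2172 CPM in Sham+Veh and at 2367 to 2447 CPM in the 4 CPIP libraries, while the 3 neurofilament chains overlap between all groups.

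Peripherin was the member with the lowest p in both comparisons with Sham+Veh, while Pvalb had the lowest in CPIP+ETA against CPIP+Veh. Prph stood at 2172 and 2114 CPM in Sham+Veh, 2412 and 2447 CPM in CPIP+Veh, and 2367 and 2372 CPM in CPIP+ETA. Every CPIP library lay above both sham libraries, and every CPIP+Veh library above both CPIP+ETA libraries. Its libraries agreed closely within groups: the pooled standard deviation within groups was 0.018 on the log2 scale, and 1.78% of the 10217 genes of at least 10 CPM with no count of 0 had a smaller one (median 0.078).

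In CPIP+Veh against Sham+Veh, Prph had a log2 fold change of 0.18 (SE 0.043, 95% interval 0.079 to 0.28), a level 13.4% above sham. It did not pass with edgeR over all genes (unadjusted p = 0.00426, adjusted p = 0.752, n = 2 libraries per group). DESeq2 gave 0.18 with an adjusted p of 0.00362 and so called it. Over the alternatives run with edgeR the adjusted p ran from 0.508 to 1 and the log2 fold change from 0.10, when scaled to the pan-neuronal genes, to 0.21, always above 0.

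Prph in CPIP+ETA against Sham+Veh had a log2 fold change of 0.15 (SE 0.043, edgeR adjusted p = 0.636), and DESeq2 did not call it either (adjusted p = 0.0704). Against CPIP+Veh, its log2 fold change in CPIP+ETA was -0.04 (95% interval -0.14 to 0.07, adjusted p = 0.948). Both CPIP groups together against sham, a contrast added after the values were seen, gave 0.16 (SE 0.037, edgeR adjusted p = 0.68). Its unadjusted p of 0.00361 was under 0.05, as for 6.1% of all genes in that contrast, and edgeR called 0.0193% of all genes. A test of any difference among the 3 groups gave an edgeR adjusted p of 0.785 (alternatives with edgeR 0.393 to 0.985) and a DESeq2 adjusted p of 0.00424. The comparisons share libraries, so their values are not independent of each other.

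Set against the triplet, Prph gave 7.33 and 7.48 reads per 100 triplet reads in Sham+Veh. With CPIP and vehicle the ratio was 8.35 and 8.98, and with CPIP and etanercept 7.45 and 8.50. CPIP+Veh lay above sham without overlap, while CPIP+ETA 1 lay within the sham range and CPIP+ETA 2 within that of CPIP+Veh. Atf3, a transcription factor switched on in axotomised neurons, parted the same libraries, with 7.69 and 6.90 CPM in Sham+Veh, 16.3 and 42.1 CPM in CPIP+Veh, and 6.20 and 23.1 CPM in CPIP+ETA. The 3 libraries highest in Atf3 were the 3 with the highest ratio, in the same order. The remaining libraries did not keep that order: among them Sham+Veh 1 had the highest Atf3 and the lowest ratio. Prph itself did not part the CPIP+ETA libraries (2367 and 2372 CPM), and their ratios differ through the triplet, at 31759 and 27916 CPM. The axon injury list as a whole summed to 597 and 554 CPM in Sham+Veh, 698 and 923 CPM in CPIP+Veh, and 577 and 670 CPM in CPIP+ETA. Of its 14 tested genes 13 were higher in CPIP+Veh than in sham at an unadjusted p under 0.05 (2.34% of all genes), 0 were called by edgeR (0.0193%) and 4 by DESeq2 (0.268%). Against CPIP+Veh, 8 were lower in CPIP+ETA at an unadjusted p under 0.05 (2.73% of all genes) and 0 were called by either tool. The list was chosen with earlier results of these data known, so its counts are only a description. Both comparisons use the CPIP+Veh libraries, and chance in those libraries moves the values in opposite directions. The list's part in the Prph values was not tested.

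**Figure D2:**
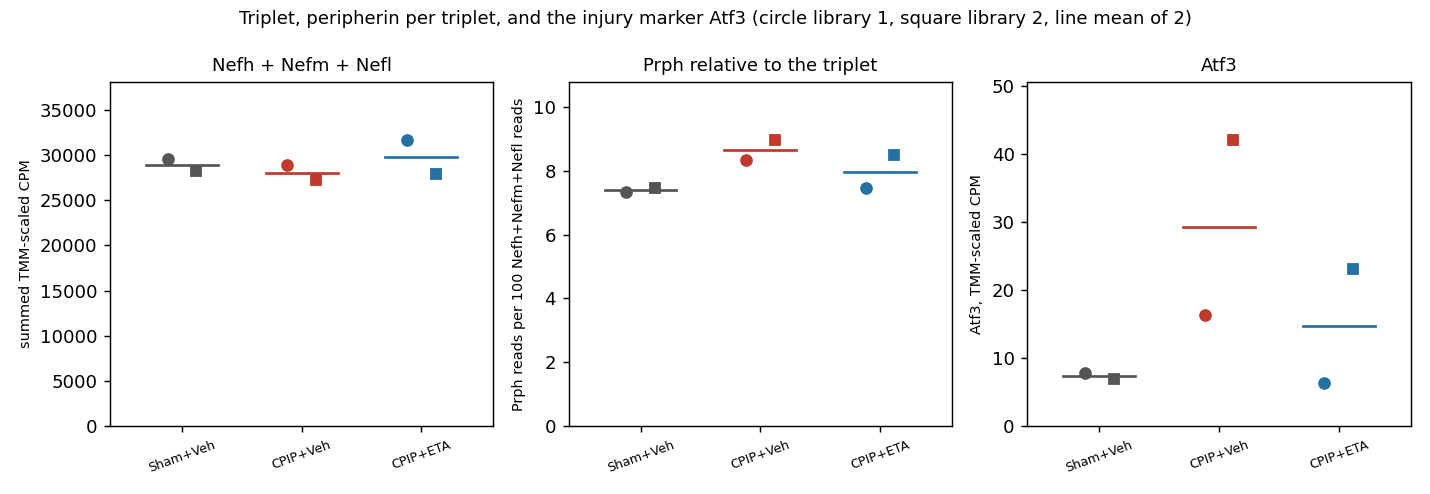
Left, summed TMM-scaled CPM of Nefh, Nefm and Nefl; middle, Prph reads per 100 triplet reads; right, Atf3 in TMM-scaled CPM; all axes start at 0, with circles for library 1, squares for library 2 and lines for the mean of 2 libraries. CPIP+Veh 1, CPIP+Veh 2 and CPIP+ETA 2 hold the highest values in the middle and right panels (8.35, 8.98 and 8.50; 16.3, 42.1 and 23.1).

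Ina was the least abundant filament gene by reads and the most variable member. It stood at 95.6 and 99.9 CPM in Sham+Veh, 94.6 and 120.7 CPM in CPIP+Veh, and 101.8 and 107.6 CPM in CPIP+ETA. The CPIP+Veh libraries lay on both sides of sham, and CPIP+Veh 2 was the highest of all. The log2 fold change in CPIP+Veh was 0.14 (95% interval -0.13 to 0.41, edgeR adjusted p = 0.955), and -0.05 without CPIP+Veh 2. Against CPIP+Veh, etanercept gave -0.04 (adjusted p = 0.976), and 0.15 without CPIP+Veh 2.

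Among the markers of large neurons, Pvalb and Slc17a7 belong to muscle and touch afferents. Pvalb, the calcium buffer parvalbumin of proprioceptors, stood at 131.8 and 117.1 CPM in Sham+Veh, 119.8 and 108.5 CPM in CPIP+Veh, and 129.4 and 128.2 CPM in CPIP+ETA. CPIP+ETA lay above CPIP+Veh without overlap, and sham overlapped both. The log2 fold change was -0.12 in CPIP+Veh against Sham+Veh (95% interval -0.31 to 0.06, edgeR adjusted p = 0.948), and from -0.21 without Sham+Veh 2 to -0.029 without Sham+Veh 1. It was 0.17 in CPIP+ETA against CPIP+Veh (95% interval -0.01 to 0.36, adjusted p = 0.938), and 0.10 without CPIP+Veh 2. Slc17a7, the vesicular glutamate transporter VGLUT1 of large afferents, stood at 250.7 and 214.1 CPM in Sham+Veh, 237.3 and 233.1 CPM in CPIP+Veh, and 246.8 and 223.4 CPM in CPIP+ETA. Both sham libraries bracketed all other values, and its log2 fold changes were 0.02, -0.00058 and 0.02 in the 3 comparisons, each with a 95% interval that reached at most 0.22 from 0.

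Skeletal muscle also makes parvalbumin. The 12 muscle markers summed to 18.1 and 37.7 CPM in Sham+Veh, 19.4 and 112.0 CPM in CPIP+Veh, and 12.4 and 62.7 CPM in CPIP+ETA. The 13 markers of spinal cord cells, whose neurons also use Slc17a7, Ina and Vsnl1, summed to 10.6 to 17.9 CPM, with 1 to 3 of the 13 at 0 in a library. Hapln2 had 117 to 171 counts per library, Gad1 25 to 72, Aqp4 7 to 83 and Olig2 0 or 1. The part of muscle and spinal cord in the values of these genes was not tested.

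Spp1, the secreted phosphoprotein osteopontin, marks large sensory neurons in the rat ganglion. It stood at 887 and 902 CPM in Sham+Veh, 1110 and 925 CPM in CPIP+Veh, and 923 and 981 CPM in CPIP+ETA. Every CPIP library lay above sham, with CPIP+Veh 1 apart from the rest. The log2 fold change was 0.18 in CPIP+Veh (95% interval -0.02 to 0.39, edgeR adjusted p = 0.938), and 0.05 without CPIP+Veh 1. In CPIP+ETA it was 0.09 against sham (adjusted p = 0.899) and -0.10 against CPIP+Veh (adjusted p = 0.94).

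Macrophages and bone cells also make osteopontin. The 15 macrophage markers summed to 584 and 516 CPM in Sham+Veh, 662 and 683 CPM in CPIP+Veh, and 558 and 647 CPM in CPIP+ETA. Much of that sum is Lyz2, a lysozyme, at 315 and 252 CPM in Sham+Veh, 417 and 381 CPM in CPIP+Veh, and 242 and 323 CPM in CPIP+ETA. In CPIP+ETA against CPIP+Veh 9 of the 15 lay above 0, with a median log2 fold change of 0.07, 0 called by edgeR and 2 by DESeq2 (0.128% of all genes). The scavenger receptor gene Cd163 had 1.65 and the mannose receptor gene Mrc1 0.84 there, and Lyz2 -0.50. The 10 bone markers summed to 75.3 and 78.6 CPM in Sham+Veh, 62.9 and 59.8 CPM in CPIP+Veh, and 55.4 and 55.4 CPM in CPIP+ETA. Among them Alpl had 479 to 721 counts per library, Ctsk 287 to 486, Runx2 62 to 89, Ibsp 29 to 54, Bglap 17 to 31 and the osteoblast factor Sp7 3 to 8. In CPIP+Veh against Sham+Veh 1 of the 6 tested bone markers lay above 0, with a median log2 fold change of -0.26. At an unadjusted p under 0.05, 2 were lower and 0 higher (2.59% and 2.34% of all genes), and 0 were called by either tool. Alpl had -0.48, Ibsp -0.76 and Bglap 0.49 there. The part of macrophages and bone cells in the Spp1 values was not tested.

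Vsnl1, a neuronal calcium sensor, stood at 181.6 and 181.8 CPM in Sham+Veh, 177.4 and 176.5 CPM in CPIP+Veh, and 176.2 and 170.8 CPM in CPIP+ETA. The 3 groups did not overlap, and sham was the highest. The differences were small: the log2 fold change was -0.04 in CPIP+Veh (95% interval -0.15 to 0.07, edgeR adjusted p = 0.962) and -0.07 in CPIP+ETA against sham (-0.18 to 0.05, adjusted p = 0.875).

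Thy1, a surface glycoprotein of neurons, stood at 1705 and 1584 CPM in Sham+Veh, 1591 and 1676 CPM in CPIP+Veh, and 1708 and 1526 CPM in CPIP+ETA. The groups overlapped fully, and the log2 fold changes lay between -0.02 and -0.0096, with 95% intervals that reached at most 0.19 from 0. T cells and fibroblasts also express Thy1. The 11 markers of these cells in the table summed to 3669 and 3907 CPM in Sham+Veh, 2890 and 3525 CPM in CPIP+Veh, and 2340 and 2972 CPM in CPIP+ETA, most of it from collagens and Dcn. Of the T cell genes, Cd4, which macrophages also express, had 732 to 960 counts per library, Cd3d 3 to 7, Cd3e 2 to 18, Cd2 6 to 19 and Cd8a 3 to 20. Cd3e and Cd8a were highest in CPIP+ETA 1. The part of these cells in the Thy1 values was not tested.

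**Figure D3:**
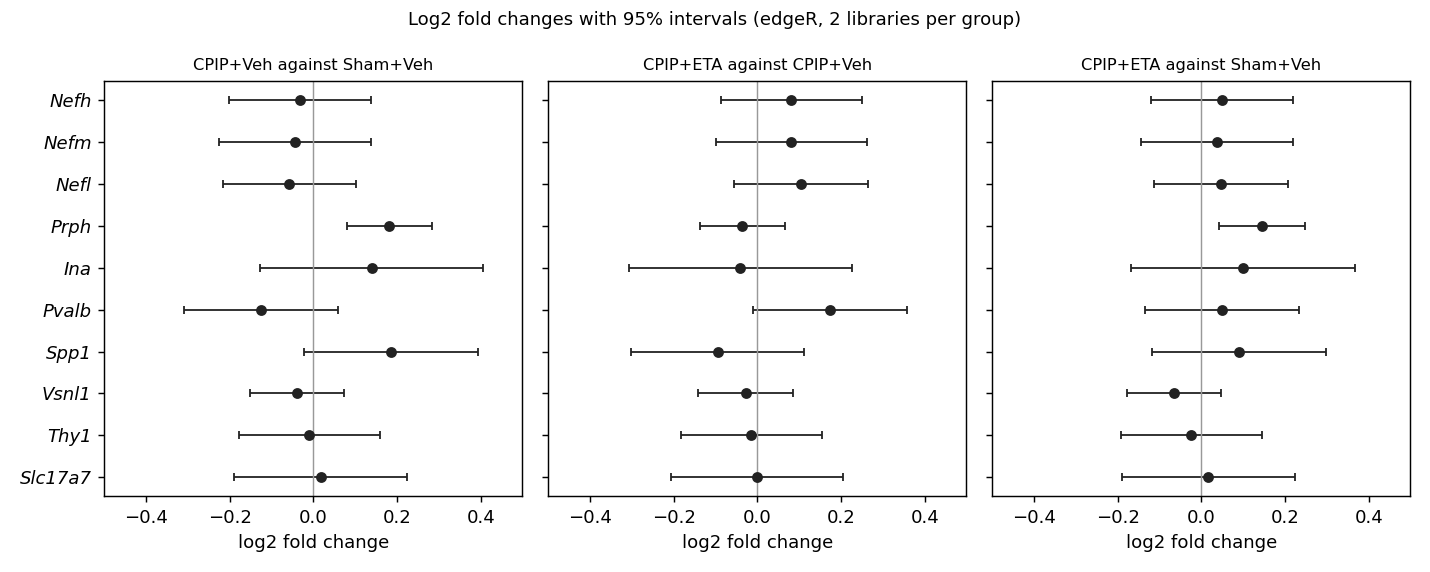
Log2 fold changes (horizontal axis) of the 10 genes (vertical axis) in the 3 comparisons, from edgeR; points are estimates and bars 95% intervals. The interval of Prph lies above 0 in both comparisons with Sham+Veh (0.079 to 0.28 and 0.04 to 0.25), and every other interval includes 0.

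Over the 10 genes, edgeR called 0 in CPIP+Veh against Sham+Veh, where it called 0.0193% of all genes. At an unadjusted p under 0.05 there was 1, Prph, beside 4.94% of all genes, and DESeq2 called 1, Prph, beside 0.268%. In that comparison 3 members did not overlap between the groups (Prph, Spp1 and Vsnl1), beside 37.1% of all genes. The median log2 fold change of the members was -0.02, and over all genes -0.0031.

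Between CPIP+ETA and CPIP+Veh edgeR called 0 members and 0% of all genes. There were 0 members at an unadjusted p under 0.05 (5.15% of all genes) and 0 called by DESeq2 (0.128%). Prph, Pvalb and Vsnl1 did not overlap, 3 of 10 members beside 32.6% of all genes. The median was -0.0076 over the members, and 0.08 over the 5 filament genes alone.

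In CPIP+ETA against Sham+Veh edgeR called 0 members, beside 0.0193% of all genes. Prph was the 1 member at an unadjusted p under 0.05 (6.37% of all genes), and DESeq2 called 0 (0.274%). Prph, Ina, Spp1 and Vsnl1 did not overlap, 4 of 10 members beside 35.7% of all genes, and the median was 0.05. For any difference among the 3 groups edgeR called 0 members, beside 0.00644% of all genes, and Prph alone had an unadjusted p under 0.05 (5.52%). The count by DESeq2 was 1, Prph, beside 0.407%.

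Across both CPIP groups, 2 members, Prph and Spp1, were higher in every CPIP library than in both sham libraries, as were 7.42% of all genes. Vsnl1 was lower in every CPIP library, as were 8.38%.

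The members' levels were also set against the other large sensory neuron markers. Of the 30 such genes tested, 8 lay above sham in CPIP+Veh, with a median log2 fold change of -0.10. EdgeR called 0 of them and DESeq2 0. At an unadjusted p under 0.05, 3 were lower and 0 higher, where 2.59% of all genes were lower and 2.34% higher. Calb2 and Whrn were among the 3.

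Calb2, the calcium buffer calretinin, stood at 80.2 and 74.4 CPM in Sham+Veh, 60.1 and 62.2 CPM in CPIP+Veh, and 77.4 and 66.3 CPM in CPIP+ETA. Whrn, the scaffold protein whirlin of proprioceptors, stood at 32.0 and 30.9 CPM in Sham+Veh, 24.4 and 26.3 CPM in CPIP+Veh, and 31.5 and 27.5 CPM in CPIP+ETA. For Calb2 and Whrn both CPIP+Veh libraries were the lowest of the 6, and CPIP+ETA 1 lay above CPIP+ETA 2.

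In CPIP+Veh against Sham+Veh the log2 fold changes were -0.34 for Calb2 (SE 0.085, edgeR adjusted p = 0.824) and -0.31 for Whrn (SE 0.093, adjusted p = 0.938). For CPIP+ETA against CPIP+Veh both were again among the 3 lowest p of the list, with 0.23 for Calb2 and 0.22 for Whrn (edgeR adjusted p = 0.938 each), and 0.12 for each without CPIP+ETA 1. There 23 of the 30 genes lay above 0, with a median of 0.09, 3 higher and 0 lower at an unadjusted p under 0.05 (2.42% and 2.73% of all genes), and 0 called by edgeR or DESeq2. The CPIP+Veh libraries are in both comparisons, and chance in them moves the values in opposite directions. Against sham, CPIP+ETA had a median of 0.0038 and 16 of 30 above 0.

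**Figure D4:**
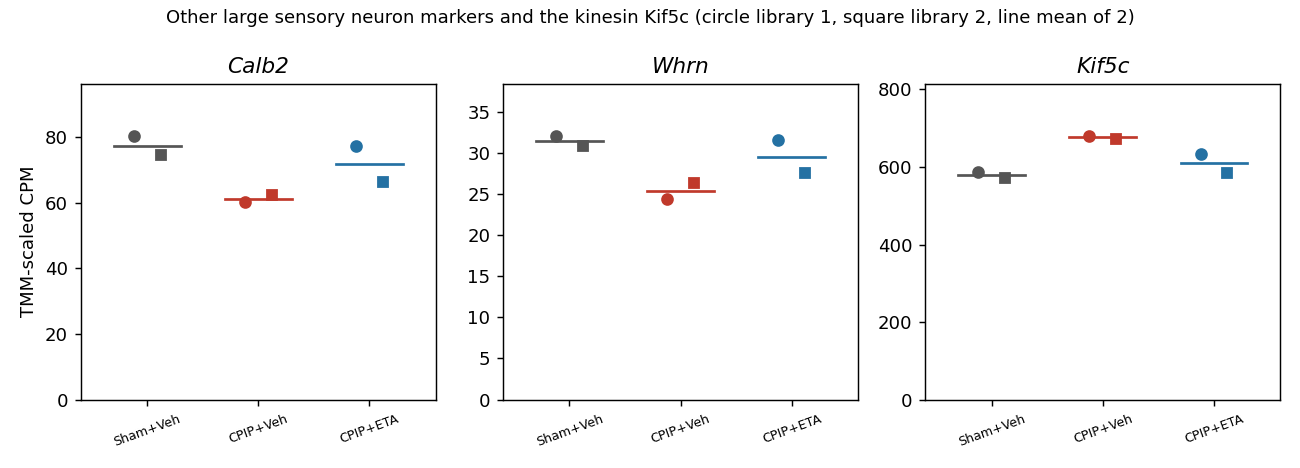
TMM-scaled CPM (vertical axis, from 0) of Calb2, Whrn and Kif5c by group, with circles for library 1, squares for library 2 and lines for the mean of 2 libraries. The CPIP+Veh libraries are the lowest for Calb2 (60.1 and 62.2 CPM) and Whrn (24.4 and 26.3 CPM) and the highest for Kif5c (679 and 673 CPM).

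Genes that build, move or clear neurofilaments differed little. Of 27 such partners tested, edgeR called 0 in CPIP+Veh against Sham+Veh and DESeq2 called 1, and the median log2 fold change was 0.0059. At an unadjusted p under 0.05, 1 was higher, Kif5c, and 0 were lower, where 2.34% of all genes were higher, 2.59% lower and 0.268% called by DESeq2. Kif5c, a kinesin motor of axonal transport, stood at 588 and 571 CPM in Sham+Veh, 679 and 673 CPM in CPIP+Veh, and 633 and 585 CPM in CPIP+ETA, with CPIP+Veh above both other groups. Its log2 fold change was 0.22 in CPIP+Veh (SE 0.054, edgeR adjusted p = 0.775, DESeq2 adjusted p = 0.0489, edgeR alternatives 0.446 to 1) and -0.15 with etanercept (adjusted p = 0.938). Both Kif5c values rest on the CPIP+Veh libraries, and chance in those libraries moves them in opposite directions. Next by p in CPIP+Veh were Sod1, an antioxidant enzyme (0.13), and Myo5a, a myosin motor that binds neurofilaments (0.11).

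With etanercept the partners had a median of 0.04 against CPIP+Veh, 21 of 27 above 0, with 0 called by edgeR or DESeq2 and 1 lower at an unadjusted p under 0.05 (2.73% of all genes). After Kif5c the lowest p was that of Dst, a linker of the cytoskeleton (0.10). Set against sham, the CPIP+ETA median was 0.05, with 4 higher and 0 lower at an unadjusted p under 0.05 (2.64% and 3.73% of all genes).

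Other intermediate filaments, made largely by glia, fibroblasts and muscle, had 0 of 10 tested genes called in each of the 3 comparisons by either tool. Synm, which encodes synemin, a partner of other filaments, stood at 510 and 510 CPM in Sham+Veh, 516 and 489 CPM in CPIP+Veh, and 572 and 593 CPM in CPIP+ETA. Its log2 fold change with etanercept was 0.21 (SE 0.049, edgeR adjusted p = 0.938). Des and Vim had -0.52 and -0.19 there, Vim -0.020 without CPIP+ETA 1, and Krt8, Gfap and Des had 0.25, 0.28 and 0.24 in CPIP+Veh against Sham+Veh, with overlapping groups.

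Small sensory neurons showed no called change either. Of 24 nociceptor markers tested, 0 were called by either tool in the 3 comparisons, and the medians were -0.02 in CPIP+Veh against sham, 0.07 with etanercept against CPIP+Veh, and 0.09 in CPIP+ETA against sham. The lowest p in CPIP+Veh were those of Prdm12, a transcription factor of pain neurons (-0.23), Adcyap1, the neuropeptide PACAP that rises after nerve injury (0.36), and Tac1, the precursor of substance P (0.23). With etanercept they were Adcyap1 (-0.39), Scn11a, a sodium channel (0.14), and Sst, somatostatin (0.33). Both Adcyap1 values rest on the CPIP+Veh libraries, so they are not independent of each other.

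Pan-neuronal genes lay slightly above sham in CPIP+Veh, with 13 of 18 above 0 and a median of 0.06, and 0 called by either tool. At an unadjusted p under 0.05, 4 were higher and 1 lower (2.34% and 2.59% of all genes). Gap43, a growth cone protein, had 0.35, Stmn2, a microtubule regulator, 0.12, and Rbfox3, the neuronal nuclear protein NeuN, -0.19. With etanercept these were -0.33, -0.09 and 0.15 against CPIP+Veh. These genes were named for their low p, and chance in the shared CPIP+Veh libraries moves the values of the comparisons in opposite directions. Scaled to this list in place of the library total, the members' median in CPIP+Veh was -0.11. The triplet then gave 2.04 and 1.98 reads per pan-neuronal read in Sham+Veh, 1.89 and 1.78 with CPIP and vehicle, and 2.04 and 1.92 with CPIP and etanercept, with CPIP+Veh the lowest group without overlap. Gap43 and Stmn2 are themselves raised by nerve injury, so this scale is not independent of it. The list summed to 14524 and 14303 CPM in Sham+Veh and 15293 and 15300 CPM in CPIP+Veh. In the same libraries Stmn2 stood at 2264, 2241, 2404 and 2496 CPM, and Gap43 at 267, 237, 295 and 344 CPM. Their part in the lower triplet ratio was not tested.

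Genes with a course most like the triplet were sought among 9732 other genes by Pearson r of log2 CPM over the 6 libraries. The highest were MAST1, a kinase that binds microtubules (0.993), the phosphatase Cdc25b (0.991), Mfn2, a mitochondrial fusion protein whose loss causes an axonal neuropathy in humans (0.99), Atg4b, a protease of autophagy (0.986), and Lrsam1, a ubiquitin ligase (0.984). MAST1 stood at 257.8 and 243.9 CPM in Sham+Veh, 252.3 and 231.7 CPM in CPIP+Veh, and 281.4 and 236.1 CPM in CPIP+ETA. As with the triplet, CPIP+ETA 1 was highest and CPIP+Veh 2 lowest. The highest r among so many genes over 6 points is high by selection and is given as a description. Among the members, r with the triplet was 0.68 for Pvalb, 0.65 for Slc17a7, 0.53 for Thy1, 0.15 for Vsnl1, -0.09 for Prph, -0.12 for Spp1 and -0.54 for Ina.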

How the data were processed

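RNA sequencing of 6 libraries (3 groups of 2) was analysed from 1 table of expected counts, estimated reads per gene that the authors deposited; 32.7% of its values were whole. Per the labels' protocols, RNA with a RIN of at least 8.0 was sequenced on the BGISEQ-500; the submitters' processing notes name the build Rnor 6.0. The sources used here do not name the aligner, counter, strand handling or annotation. Genes blank in every library (2907) were read as 0 and counts were rounded.

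All 6 libraries were fitted together in edgeR 4.0.16 (R 4.3.3; quasi-likelihood F-test, group only, TMM, filterByExpr with minimum count 10 and total 15; 3 residual degrees of freedom), with calls at a Benjamini-Hochberg adjusted p under 0.05. DESeq2 1.42.0 was an alternative, with others listed under the closing limits. Standard errors were derived from the fold change and the F statistic. The procedure was tested on simulated data with planted changes larger than those of any member. That test does not show whether changes as small as the members' would be called. Figures used matplotlib 3.10.9.

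Members, 13 gene lists and tests were chosen with earlier results of these data known. All members were named, and of 5 lists the 3 genes with the lowest p in each of the first 2 comparisons; the rule covered every list, but injury genes and other cell types are given mainly as sums and counts. The single other-cell markers with counts were picked once their values had been seen. The rule also took Atf3 and the 5 genes most like the triplet by Pearson r over 6 libraries, among genes of at least 10 CPM. Of the genes the rule took, 2 are not reported here. Reference names and promoters come from GRCr8, in which all 10 members matched.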

Additional observations from a re-analysis of the deposited data

How the results depend on the processing

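The alternatives were RLE, library-total, upper-quartile and pan-neuronal scaling, DESeq2, no filter on low counts, a fit to 2 groups at a time, a block on the library number, each library left out in turn and, added after the data were seen, the triplet left out of the totals. Where a group keeps 1 library, its spread is taken from the other groups. Of 450 fold changes of members under them, 413 kept their direction and side of the threshold, 1 became a call (Prph with DESeq2) and 36 changed sign. With 2 libraries per group, differences within the intervals given cannot be told apart here. The intervals are not limits of detection: that of Prph lay above 0 in CPIP+Veh against Sham+Veh, and edgeR did not call it.

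DESeq2 called 1 member in CPIP+Veh against Sham+Veh and 1 for any difference among the 3 groups, against 0 with edgeR. Over all genes it called 47, 22, 45 and 70 where edgeR called 3, 0, 3 and 1. With edgeR, 0 members were called whichever library was left out, and the median of the members then ran from -0.066 to 0.039 in CPIP+Veh against Sham+Veh, from -0.027 to 0.066 in CPIP+ETA against CPIP+Veh, and from -0.034 to 0.084 in CPIP+ETA against Sham+Veh. Scaled to the pan-neuronal genes it was -0.11 and -0.014 in the comparisons with sham, and over the filament genes alone it was 0.081 with etanercept. The libraries share only a title number: differences between libraries 1 and 2 correlated across genes at -0.14 between Sham+Veh and CPIP+Veh, 0.0032 between Sham+Veh and CPIP+ETA, and 0.13 between CPIP+Veh and CPIP+ETA. With that number as a replicate block the medians were -0.020, -0.010 and 0.046, and 0 members were called. Pvalb in CPIP+ETA against CPIP+Veh then had 0.18 (edgeR unadjusted p = 0.0295, adjusted p = 0.839). Nefh, Nefm, Nefl, Pvalb and Slc17a7 were higher in library 1 than in library 2 of every group, and Ina was lower. The other members kept no such order. Whether the number pairs libraries across groups is not given in the labels.

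With libraries left out, the lowest and highest log2 fold changes in CPIP+Veh against Sham+Veh were -0.081 and 0.026 for Nefh, -0.089 and 0.0014 for Nefm, -0.047 and 0.31 for Ina, -0.060 and 0.052 for Thy1, -0.091 and 0.14 for Slc17a7, -0.021 and 0.68 for Gfap and -0.29 and 0.63 for Des. In CPIP+ETA against CPIP+Veh they were -0.0049 and 0.16 for Nefh, -0.023 and 0.18 for Nefm, -0.20 and 0.15 for Ina, -0.22 and 0.046 for Spp1, -0.096 and 0.064 for Thy1, -0.072 and 0.069 for Slc17a7 and -0.90 and 0.015 for Des. In CPIP+ETA against Sham+Veh they were -0.033 and 0.14 for Nefh, -0.062 and 0.14 for Nefm, -0.035 and 0.13 for Nefl, -0.030 and 0.15 for Pvalb, -0.10 and 0.059 for Thy1 and -0.090 and 0.14 for Slc17a7. Scaled to the pan-neuronal genes, Slc17a7 had -0.068, 0.024 and -0.044 in the 3 comparisons, Thy1 0.0093 with etanercept against CPIP+Veh, and Nefh -0.013, Nefm -0.025, Nefl -0.015 and Pvalb -0.0096 in CPIP+ETA against Sham+Veh. Slc17a7, at -0.00058 with etanercept, had 3.8e-05 with only the 2 groups and 0.0027 without the triplet in the totals. The cause of these changes was not tested.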
